A study of Mus musculus with 28 samples.

Results

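Long H3K79me2 domains are stretches of at least 20 kb of chromosomes 1 to 19 over which peaks of the histone mark H3K79me2 ran with little interruption in mouse lung tumours. A base was counted when peaks of at least 3 of the 4 H3K79me2 libraries covered it, gaps of up to 1 kb were closed, and regions of 20000 bp or longer were kept. This rule found 1491 domains among 18205 H3K79me2 regions, or 8.19% of the regions, and the domains held 49.9 Mb, or 39.4% of the bases in all H3K79me2 regions. The domains were chosen on the H3K79me2 peaks, so the H3K79me2 values below describe them and were not tested.

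The marks were mapped by ChIP-seq, the sequencing of DNA that an antibody against a modified histone pulls down from sheared chromatin, for 6 histone marks with 4 libraries each. The lung tumours came from mice given Ad-CMV-Cre, an adenovirus with Cre recombinase under the broadly active CMV promoter. All mice carried K-RasLSL-G12D, a mutant K-Ras allele silent until Cre removes its stop cassette, and one of the 2 tumour types also carried Mll4fl/fl, alleles of the H3K4 methyltransferase gene Mll4 that Cre deletes. Fixation of 3 mg of tissue for each antibody in 1% paraformaldehyde lasted 10 min and shearing gave fragments of 250 to 500 bp, per the labels' protocols. The tissue was not sorted, so every library mixed tumour cells with whatever other cells the tumour held. The labels do not tie a library to a tumour type. Tumours with and without Mll4fl/fl were therefore not compared. Libraries that share a mark served as its 4 replicates, and their spread can include a difference between tumour types. The labels also do not say whether replicates came from separate animals, so p-values measure only the spread between these libraries.

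H3K79me2 is dimethylation of lysine 79 of histone H3, placed by the enzyme DOT1L, and is found in the bodies of transcribed genes, most densely towards their 5′ part. H3K4me3 marks transcription start sites, H3K27ac marks active promoters and enhancers, and H3K4me1 marks enhancers and the flanks of promoters. H3K27me3, placed by Polycomb repressive complex 2, and H3K9me3, found in heterochromatin, mark repressed chromatin. A gene body with H3K79me2 is therefore usually bordered by H3K4me3 on the side where transcription starts.

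The median domain was 28855 bp long, with quartiles of 23807 and 38551 bp, against a median of 3314 bp over all H3K79me2 regions. The shortest was 20005 bp and the longest 120451 bp, and 81 domains reached 60 kb. Just inside the limit lay domains of 20005, 20012 and 20019 bp, and just outside it regions of 19964, 19944 and 19938 bp. Domains lay on all 19 chromosomes examined, from 3.92 per 10 Mb on chromosome 14 (47 domains) to 9.17 per 10 Mb on chromosome 11 (109 domains). Neighbouring domains were a median of 550 kb apart. Positions are those of the mouse build mm9, which the submitters' processing notes name, counted from 1. No gene was assigned to a domain, because the gene table at hand is of another build.

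Several libraries stood apart from the others of their mark. H3K4me3 replicate 1 was sparse, with peaks touching 45.6% of the domains against 77.5% to 78.3% in replicates 2 to 4. H3K27ac replicate 1 covered 4.60% of the domain bases more than 5 kb from both ends, against 23.6% to 24.95% in the other H3K27ac libraries. H3K27ac replicate 2 covered little in the 20 kb flanks of the domains, 2.43%, although it covered 22.0% inside them, and 49.6% of all bases under its peaks lay in the domains, against 11.7% to 14.4% in the other H3K27ac libraries. H3K9me3 replicate 4 covered 1.71% of the domain bases against at most 0.103% in the other H3K9me3 libraries, and 78.6% of those bases also lay under H3K4me1 peaks of replicate 4, against at most 1.03% for replicates 1 to 3. Among the H3K79me2 libraries, replicates 1 and 2 had no peak over some whole domains and replicate 4 was broken into small peaks. Sequencing depth was unknown for every library, since the peak lists hold no read counts, and a difference in covered share between libraries includes any difference in depth.

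The 4 H3K79me2 libraries covered most of the domain bases, each with its own kind of gap. Peaks covered 86.4% of the domain bases in replicate 1, 92.9% in replicate 2, 96.6% in replicate 3 and 87.4% in replicate 4. The median domain was covered over 98.7%, 99.6%, 98.0% and 90.1% of its length. In replicate 4 the peaks that touched a domain had a median width of 1687 bp, against 5072 to 14594 bp in the other 3 libraries. A domain was covered by 1 unbroken piece, after closing gaps of up to 1 kb, in 805 cases (54.0%) in replicate 4 and in 1266 to 1385 cases (84.9% to 92.9%) in replicates 1 to 3. Replicate 4 had the lowest covered share of the 4 libraries in 1036 domains (69.5%). Over 90% of the length was covered in all 4 libraries in 463 domains (31.1%) and in exactly 3 of them in 870 (58.4%).

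**Figure D1:**
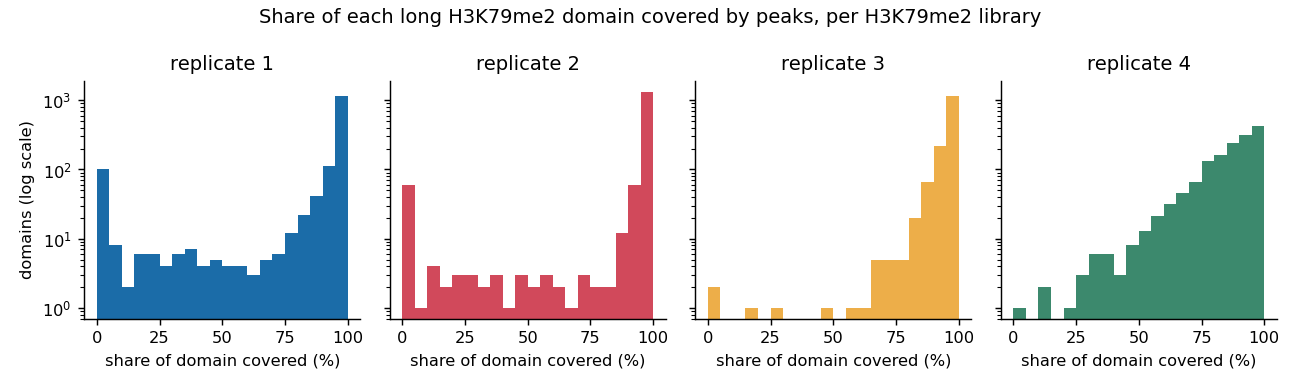
Share of each domain covered by peaks, in percent (horizontal axis, steps of 5), against the number of domains on a log scale (vertical axis), with 1 panel for each of the 4 H3K79me2 libraries and all 1491 domains in each panel. Replicates 1 and 2 have a separate column at the left edge, the 97 and 58 domains with no covered base, while replicate 4 spreads to the left of full cover.

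A subset of domains was missing from a single library. Where 1 library has no peak, the rule admits a base only if the other 3 cover it, so their high cover in these domains follows from the selection. Replicate 1 covered less than 5% of 100 domains, of which 97 had no covered base, and replicate 2 did so in 59 domains, of which 58 had none. Replicate 3 missed 2 domains and replicate 4 missed 1, for a total of 162 domains (10.9%). In the 100 domains missing from replicate 1, the median covered share was 100% in replicate 2, 99.8% in replicate 3 and 97.3% in replicate 4, and the lowest single value was 83.2%. In the 59 missing from replicate 2 the medians of the other 3 libraries were 100%, 99.5% and 97.3%. Replicate 1 covered between 5% and 50% of a further 48 domains, replicate 2 of 22, replicate 3 of 3 and replicate 4 of 29.

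Longer regions were missed more often by replicates 1 and 2, given here as a description with no test. The share of regions missing from a single library was 6.52% at 5 to 10 kb, 6.57% at 10 to 20 kb, 8.24% at 20 to 30 kb, 11.01% at 30 to 40 kb, 16.5% at 40 to 60 kb and 18.5% at 60 kb or more. For replicate 1 alone it went from 2.91% to 11.1% over the same classes, and for replicate 2 from 2.37% to 7.41%. Replicate 4 went the other way, from 1.04% at 5 to 10 kb to 0.123% at 20 to 30 kb and 0% above. The longest single peak was 70730 bp in replicate 1 and 95158 bp in replicate 2. The cause of the trend was not tested.

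The domains missing from H3K79me2 replicate 1 carried peaks of H3K27ac, H3K4me1 and H3K4me3 in every library of these marks. H3K27ac covered 9.32%, 30.9%, 40.7% and 38.0% of their bases in replicates 1 to 4, against 5.44%, 21.2%, 25.9% and 25.3% in the remaining domains. H3K4me1 covered 15.2%, 22.9%, 35.2% and 37.5%, against 8.91%, 13.9%, 23.0% and 23.9%. Both marks were thus higher in this set in all 4 libraries of each mark, replicate 1 included. H3K4me3 covered 0.780%, 5.12%, 4.47% and 5.59%, against 0.750%, 5.47%, 4.80% and 6.04%, lower in 3 of 4 libraries. The domains missing from replicate 2 did not repeat this for H3K27ac, which covered 4.83%, 21.8%, 25.9% and 27.4% of their bases against 5.78%, 21.98%, 27.1% and 26.3% in the rest, lower in 3 of 4 libraries. H3K4me1 covered 10.2%, 15.9%, 25.9% and 29.96% there, against 9.36%, 14.5%, 23.9% and 24.8%. The domains missing from replicate 1 were also longer, with a median of 34846.5 bp against 28595 bp, and the part of length in this difference was not tested. In the 20 kb flanks of the domains it missed, replicate 1 covered 19.6% of the bases with H3K79me2 peaks, against 32.0% to 39.6% in the other 3 libraries.

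One of the 10 longest domains was among those missing from replicate 1. The domain at chr9:70055247-70143950 (88704 bp) had no H3K79me2 peak in replicate 1, and was covered over 99.6%, 99.2% and 95.3% in replicates 2 to 4. H3K27ac covered 10.7%, 35.0%, 65.5% and 67.2% of it in replicates 1 to 4. H3K4me1 covered 16.1%, 34.0%, 44.8% and 55.1%. H3K4me3 peaks at its low-coordinate end covered 3.55%, 2.36% and 3.12% of the domain in replicates 2 to 4, and replicate 1 had none. No H3K27me3 library had a peak in it.

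**Figure D2:**
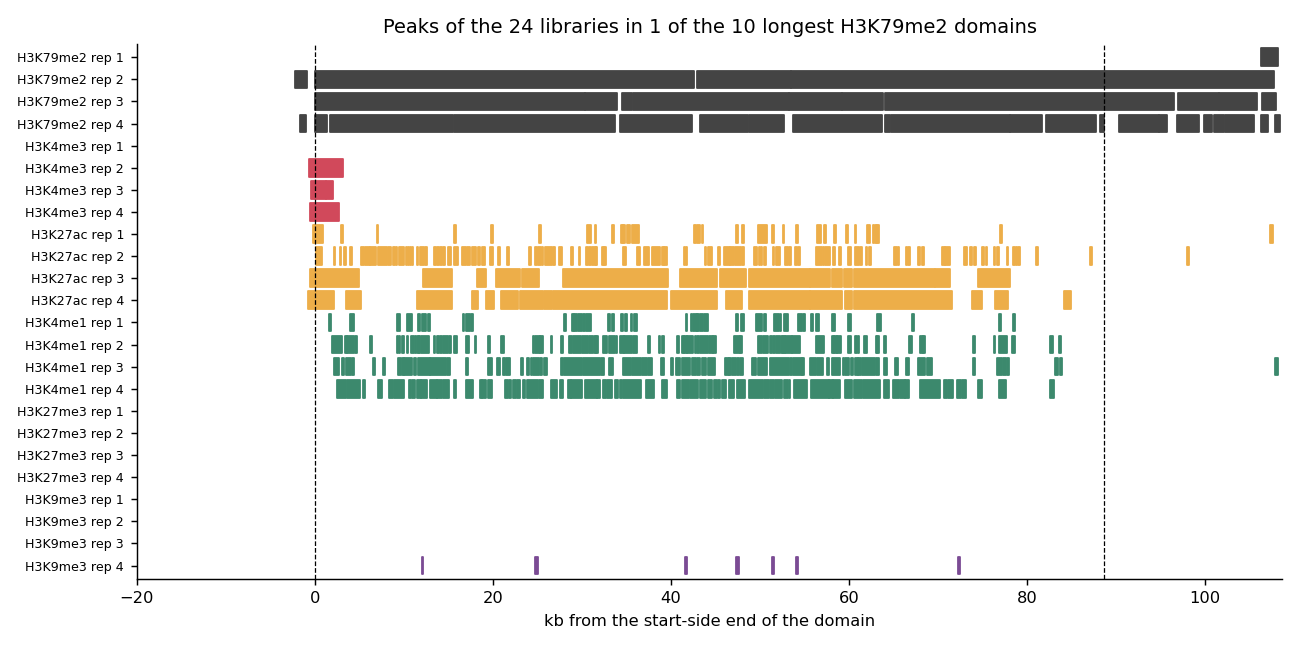
Peaks of the 24 libraries (rows, 4 replicates for each of 6 marks) over the 88704 bp domain on chromosome 9 and its surroundings, with the distance in kb from its start-side end on the horizontal axis. Bars are peaks, and the row of H3K79me2 replicate 1 is empty across the domain while H3K27ac and H3K4me1 peaks of replicate 1 lie inside it.

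Other members of the 10 longest were short of cover in a single library too. The longest, chr18:35277633-35398083 (120451 bp), was covered over 96.9%, 97.1%, 99.8% and 90.9% in replicates 1 to 4, with no library far from the rest. The domain at chr2:60619394-60718679 (99286 bp) was covered over 32.4% in replicate 1 and over 99.3%, 98.8% and 86.5% in the others. The domain at chr10:66520220-66620629 (100410 bp) was covered over 38.8% in replicate 2 and over 97.2%, 98.2% and 96.2% in replicates 1, 3 and 4. A low value in only 1 library thus separated these domains from the first. Replicate 1 was also the lowest at chr19:24201066-24299577 (50.3% against 96.4% to 99.3%) and at chr15:25554249-25644164 (34.9% against 91.9% to 98.0%).

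H3K4me3 stood at 1 end of most domains, which gave them a start side. An end was called marked when bases covered in at least 3 of the 4 H3K4me3 libraries lay between 2 kb outside and 5 kb inside it. Of the 1491 domains, 1119 (75.1%, 95% Wilson interval 72.8% to 77.2%, counting error over domains only) were marked at 1 end alone, 542 at the low-coordinate end and 577 at the high-coordinate end. Only 19 domains (1.27%) were marked at both ends, and 353 (23.7%) at neither. Single H3K4me3 libraries gave 1125, 1126 and 1121 domains with 1 marked end in replicates 2 to 4 and 750 in the sparse replicate 1. Where 2 libraries each marked 1 end of a domain, they chose the same end in 99.9% to 100% of the domains, and the only disagreement was 1 of 723 domains between replicates 1 and 3.

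A single marked end was more frequent in long domains than in shorter H3K79me2 regions. With the inner window shortened to 2.5 kb, to fit regions of 5 to 20 kb, 1101 long domains (73.8%) and 3082 of 5398 shorter regions (57.1%) had 1 marked end. Within the long domains, with the inner window of 5 kb, the share was 70.2% at 20 to 25 kb and at 25 to 30 kb, 80.7% at 30 to 40 kb, 81.6% at 40 to 60 kb and 79.01% at 60 kb or more. The covered H3K4me3 at the marked end was also wider in long domains. Its median width was 2991, 2301 and 3059 bp in replicates 2 to 4 of the long domains, against 2538, 1991.5 and 2611.5 bp in the shorter regions. In replicate 1 the medians were 322 and 301 bp.

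The start side was then read from 3 H3K4me3 libraries, of which 2 had to cover a base, and H3K4me3 was measured in the library left out. In the 5 kb inside the start side, the left-out library covered 5.56%, 39.1%, 34.6% and 43.3% of the bases for replicates 1 to 4. In the 5 kb inside the opposite side it covered 0.0251%, 0%, 0.0214% and 0.206%. The difference was 30.6 ± 17.0 percentage points (SD, n = 4) and positive in 4 of 4 libraries, and 38.9 points without replicate 1. An exact two-sided sign-flip test gave p = 0.125 (adjusted p = 0.148), the smallest p that 4 libraries allow. The near absence on the opposite side follows in part from the choice of domains with 1 marked end.

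The libraries placed the border of H3K79me2 closer together at the start side than at the opposite side. Over the 1004 oriented domains that all 4 libraries reached, the outermost H3K79me2 positions of the 4 libraries spanned a median of 887.5 bp at the start side and 3573.5 bp at the opposite side. The span was under 1 kb in 54.8% of the start sides and in 15.5% of the opposite sides. It was over 5 kb in 7.17% and 39.3%. H3K79me2 also thinned along the domain in replicate 4, where 3 equal sections of the domains, taken in order from the start side, were covered over 93.1%, 90.8% and 81.5%. In replicate 1 the sections were covered over 88.1%, 86.8% and 85.9%.

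H3K27ac and H3K4me1 were denser on the start side than on the opposite side. H3K27ac covered 17.2%, 33.5%, 52.0% and 49.6% of the 5 kb inside the start side in replicates 1 to 4, against 2.46%, 8.34%, 17.7% and 16.8% inside the opposite side. The start side was higher in each of the 4 libraries, by 3.95-fold on average (log2 1.98 ± 0.59, SD, n = 4). H3K4me1 covered 15.5%, 23.3%, 31.6% and 26.6% against 3.92%, 6.42%, 13.6% and 15.7%, a 2.74-fold difference (log2 1.45 ± 0.57, SD, n = 4) with the same sign in 4 of 4 libraries. The exact two-sided sign-flip test gave p = 0.125 for each mark (adjusted p = 0.148 over 13 tests), and no such test on 4 libraries could pass 0.05.

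H3K4me1 was highest further inside the start side than H3K4me3 in each replicate number. H3K4me3 was highest in the first kb inside, at 17.8%, 87.7%, 84.1% and 88.3% in replicates 1 to 4. H3K27ac was highest in the same step in replicates 1, 3 and 4, at 44.8%, 89.998% and 86.6%, but replicate 2 reached its highest value of 37.0% only at 4 to 5 kb. H3K4me1 covered 6.03%, 9.05%, 12.3% and 9.72% of that first kb. It was highest further in, at 1 to 2 kb in replicate 1 (21.0%) and at 2 to 3 kb in replicates 2 to 4 (30.6%, 39.3% and 32.5%). All 4 H3K4me1 libraries were thus lower in the kb where H3K4me3 was highest than in the steps behind it.

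**Figure D3:**
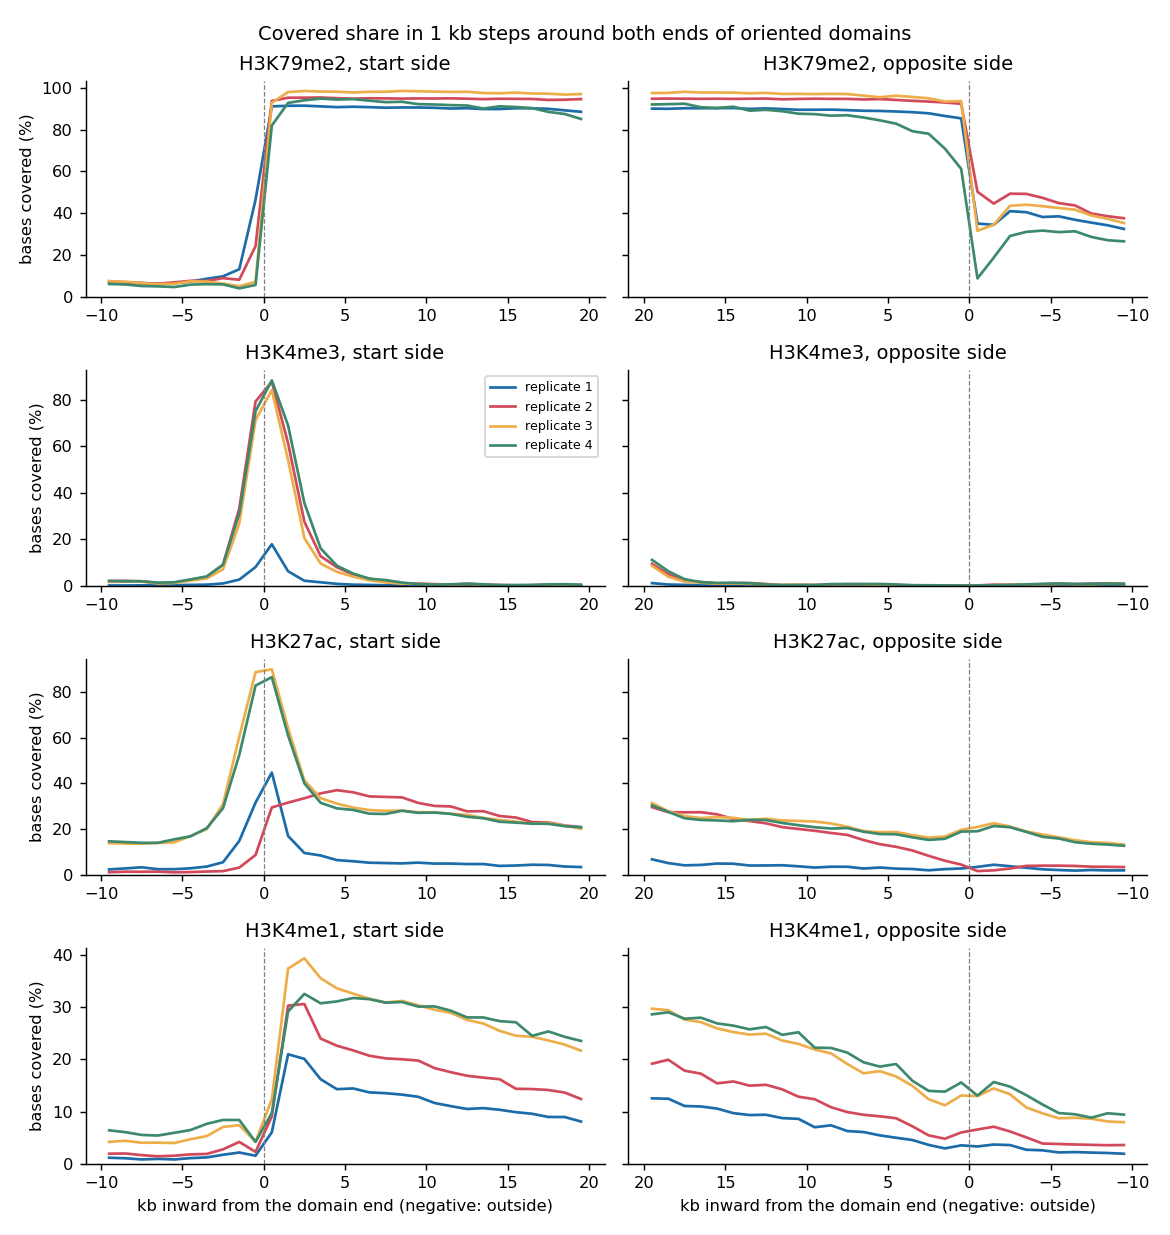
Bases covered, in percent, in 1 kb steps from 10 kb outside to 20 kb inside the start side (left) and the opposite side (right) of the 1119 domains with 1 marked end, with 1 row of panels for each of 4 marks and 1 line for each of 4 libraries. At the start side H3K4me3 is highest in the first kb inside and H3K4me1 between 1 and 3 kb, and neither has such a peak at the opposite side.

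The 2 marks also lay deep inside the domains. H3K27ac peaks touched 85.8%, 98.7%, 94.4% and 93.6% of the domains in replicates 1 to 4, and H3K4me1 peaks 93.6%, 97.6%, 98.5% and 96.9%. More than 5 kb from both ends, bases covered in at least 3 H3K4me1 libraries lay in 1184 domains (79.4%). The corresponding H3K27ac bases lay in 809 domains (54.3%), or in 920 (61.7%) when replicate 2 was left out and 2 of the other 3 libraries were asked for. H3K4me3 bases lay there in 144 domains (9.66%). In this inner part, 20.5%, 40.1%, 60.6% and 61.1% of the H3K4me1 bases of replicates 1 to 4 were also under H3K27ac peaks of the same number.

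Compared with their surroundings, the domains held more H3K4me1 in every library and almost no H3K27me3. The flanks left out bases in any long domain but kept shorter H3K79me2 regions. H3K4me1 covered 9.40%, 14.6%, 23.9% and 24.98% of the domain bases in replicates 1 to 4, against 1.83%, 3.22%, 7.06% and 8.64% of the 20 kb flanks. The ratio was 3.89-fold (log2 1.96 ± 0.38, SD, n = 4). H3K27ac covered 5.74%, 22.0%, 27.01% and 26.3% against 3.57%, 2.43%, 18.9% and 18.4%, a ratio of 2.33-fold (log2 1.22 ± 1.305, SD, n = 4) that rested largely on replicate 2 and was log2 0.57 without it. H3K4me3 was 1.44-fold higher inside (log2 0.52 ± 0.26, SD, n = 4), and this turned to log2 −0.03 with flanks of 10 kb. Each of these 3 differences was positive in 4 of 4 libraries with 20 kb flanks, with p = 0.125 in the exact sign-flip test (adjusted p = 0.148).

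Polycomb-marked chromatin was nearly absent from the domains. H3K27me3 covered 0.00559%, 0.0130%, 0.120% and 0.0205% of the domain bases in replicates 1 to 4, against 0.180%, 0.402%, 1.98% and 0.582% of the flanks. The inside level was 0.0384 times the flank level (log2 −4.70 ± 0.45, SD, n = 4, exact sign-flip p = 0.125, adjusted p = 0.148). No H3K27me3 library touched 1470 of the 1491 domains, and 1 domain was touched in all 4. The largest share was in the domain at chr2:130276384-130298015 (21632 bp), where H3K27me3 covered 0%, 0.74%, 53.9% and 0% in replicates 1 to 4, nearly all of it in replicate 3.

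H3K9me3 was low inside the domains in 3 libraries and higher in the fourth. It covered 0.103%, 0.0721%, 0.0420% and 1.71% of the domain bases, against 0.242%, 0.176%, 0.0850% and 0.548% of the flanks. The log2 ratio was −0.47 ± 1.41 (SD, n = 4, exact sign-flip p = 0.625), and −1.18 without replicate 4. Replicate 4 touched 648 domains, replicates 1 to 3 touched 52, 58 and 32, and 17 domains were touched in all 4 libraries. Replicate 4 was the one library with more H3K9me3 inside the domains than in the flanks.

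**Figure D4:**
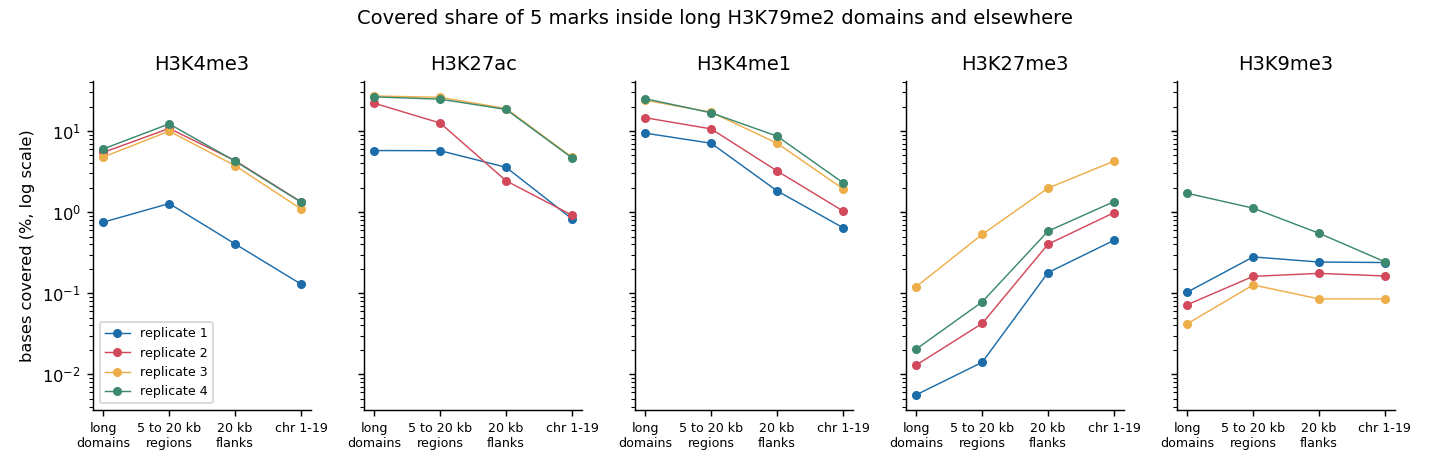
Bases covered, in percent on a log scale, in long domains, in H3K79me2 regions of 5 to 20 kb, in the 20 kb flanks of the long domains and over chromosomes 1 to 19, with 1 panel for each of 5 marks and 1 line for each of 4 libraries. H3K27me3 drops by more than an order of magnitude from the flanks to the domains in every library, and H3K9me3 replicate 4 lies above the other H3K9me3 libraries.

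Long domains differed from shorter H3K79me2 regions in the same direction in all 4 libraries for 4 of the 5 marks. H3K4me1 covered 9.40%, 14.6%, 23.9% and 24.98% of the bases in long domains, against 7.06%, 10.6%, 17.1% and 16.7% in regions of 5 to 20 kb, a ratio of 1.40-fold (log2 0.48 ± 0.07, SD, n = 4). H3K4me3 covered 0.515 times the share of bases in long domains (log2 −0.96 ± 0.13, SD, n = 4), at 0.752%, 5.44%, 4.78% and 6.01% against 1.27%, 10.8%, 9.96% and 12.2%. This share is per base, and H3K4me3 at an end fills less of a longer region. H3K27me3 covered 0.292 times the share (log2 −1.77 ± 0.35, SD, n = 4). Against regions of 10 to 20 kb alone its log2 ratio was −1.01, with replicate 4 the other way (0.0205% against 0.0192%) and p = 0.25 in the exact sign-flip test. For H3K27ac the log2 ratio was 0.24 ± 0.38 (SD, n = 4), smaller than its spread, and 0.05 without replicate 2. Its sign was not common to the 4 libraries when only peaks reaching their library's median score were kept (exact sign-flip p = 0.75) or with gaps of up to 2 kb closed (exact sign-flip p = 0.375). The exact sign-flip test gave p = 0.125 (adjusted p = 0.148) for these 4 marks and p = 0.25 (adjusted p = 0.271) for H3K9me3, whose log2 ratio was −0.90 ± 1.02 (SD, n = 4), or −1.40 without replicate 4.

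Within the long domains, H3K4me1 went up with length in each library. From domains of 20 to 25 kb to those of 60 kb or more, its covered share in replicate 4 went from 20.4% to 31.6%, while that of H3K4me3 went from 7.69% to 3.54%. H3K27ac went from 25.1% to 30.3% in replicate 3 and from 24.6% to 31.0% in replicate 4. Length classes of 1 library share its depth, and these trends are given as a description with no test.

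**Figure D5:**
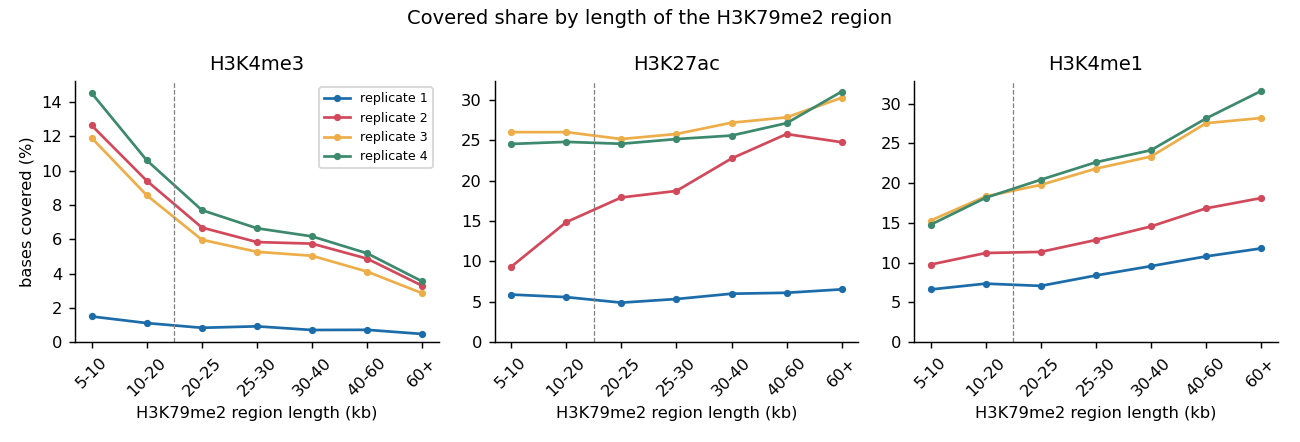
Bases covered, in percent, by length class of the H3K79me2 region in kb, with 1 panel for each mark and 1 line for each of 4 libraries. The dashed line separates regions under 20 kb from the long domains, and to its right H3K4me1 goes up with length in each library, while H3K4me3 is lower at 60 kb or more than at 20 to 25 kb.

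Marks were also compared by enrichment, the share covered inside the domains divided by the share covered over chromosomes 1 to 19. It was 14.6, 14.1, 12.3 and 10.8 for H3K4me1 in replicates 1 to 4, and 6.95, 23.96, 5.69 and 5.65 for H3K27ac. H3K27me3 stood at 0.0125, 0.0132, 0.0284 and 0.0152, and H3K9me3 at 0.432, 0.442, 0.494 and 6.99. All 4 libraries of each of the other marks thus lay above all 4 of H3K27me3. On the log2 scale H3K27ac exceeded H3K27me3 by 9.03, H3K4me1 by 9.62 and H3K9me3 by 5.78. An exact two-sided permutation test of 4 against 4 libraries gave p = 0.0286 for each (adjusted p = 0.0381 over 4 comparisons). These calls were lost without scaling by the chromosomes (log2 9.71, 9.68 and 2.88, adjusted exact permutation p = 0.0571, 0.0571 and 0.152). They were also lost with the replicate number as a block (exact sign-flip p = 0.125, adjusted p = 0.167), where 4 pairs allow no smaller p. H3K27ac and H3K4me1 differed by −0.59 (p = 0.286 in the exact permutation test, adjusted p = 0.286), and by −1.04 without replicate 2, where the 3 remaining libraries of each mark allow no p below 0.1. Without scaling by the chromosomes this difference turned to log2 0.0325. Between H3K27ac and H3K4me1 the replicate numbers pair the libraries, and the sign of their difference was positive in replicate 2 alone.

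Domains without a marked end were also described separately. Of these 353 domains, 308 had no peak of any H3K4me3 library at an end, and 261 had no H3K4me3 base covered in 3 libraries within 10 kb. They were shorter than domains with 1 marked end, with medians of 27324 and 29879 bp. H3K27ac covered 4.15%, 12.5%, 22.5% and 22.9% of their bases in replicates 1 to 4, against 6.19%, 24.8%, 28.2% and 27.2% in domains with 1 marked end. H3K4me1 covered 5.58%, 9.14%, 17.6% and 20.7%, against 10.5%, 16.2%, 25.7% and 26.1%. Both marks were lower without a marked end in 4 of 4 libraries. The classes were split on H3K4me3 at an end, and both marks were dense near the start side. The difference can therefore follow in part from the split.

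Most of the unmarked domains were neighbours of another H3K79me2 region. When H3K79me2 regions up to 5 kb apart were joined, 320 of the 353 (90.7%) became part of a larger region. For 266 of the 353 (75.4%), the region around the domain after joining held H3K4me3. The 266 can include domains that were not joined and domains that held H3K4me3 themselves. With regions up to 10 kb apart joined, the same counts, each out of the 353, were 337 and 306 (86.7%). Of the 1119 domains with 1 marked end, 341 of the 542 marked at the low-coordinate end and 345 of the 577 marked at the high-coordinate end became part of a larger region at 5 kb. Among neighbouring long domains within 10 kb of each other, 78 pairs joined a domain with 1 marked end to an unmarked one. In 75 of them the unmarked domain lay on the side opposite the start. The end rule favours that side, because H3K4me3 at a start side can also mark the near end of a domain just beyond it. Of the unmarked domains, 51 (14.4%) held H3K4me3 more than 5 kb from both ends.

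Named unmarked domains differed in where H3K4me3 lay. The domain at chr9:45824955-45919945 (94991 bp) had no H3K4me3 peak in any library, and H3K27ac covered only 0.374%, 4.66%, 2.91% and 0.612% of it. The domain at chr10:66520220-66620629 held 4308 bp of H3K4me3 away from its ends, in replicates 2 to 4 and not in replicate 1. Of the 19 domains marked at both ends, the longest, chr1:120286037-120354436 (68400 bp), was covered by H3K79me2 over 16.2% in replicate 1 and over 100%, 99.9% and 95.7% in replicates 2 to 4.

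Single domains ranged widely in the marks inside them. The median domain was covered by H3K27ac over 2.96%, 18.7%, 16.1% and 15.1% in replicates 1 to 4, and 3, 54, 303 and 283 domains were covered over more than 50%. The highest mean was at chr2:152601804-152656778 (54975 bp), where H3K27ac covered 59.8%, 74.7%, 98.5% and 96.7% and H3K4me1 38.9%, 47.7%, 72.5% and 64.9%. It was followed by chr7:86417892-86443770 (25879 bp), with H3K27ac over 47.4%, 61.5%, 99.4% and 99.6%. H3K4me1 was highest at chr4:154555891-154596929 (41039 bp), over 59.5%, 71.1%, 77.2% and 83.6%, with H3K27ac over 24.8%, 79.8%, 68.6% and 79.4%. In these domains both marks were high in all 4 libraries, with replicate 1 the lowest. Other domains held little of either mark in most libraries. The domain at chr11:104216649-104303284 (86636 bp), one of the 10 longest, had H3K27ac over 1.39%, 16.1%, 2.16% and 1.68% and H3K4me1 over 3.79%, 7.67%, 10.7% and 3.23%. Its 16.1% in H3K27ac replicate 2 was near the median of 18.7% in that library.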

How the data were processed

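The deposited data are peak lists, 1 for each of the 24 antibody libraries, with a position, a name and the authors' score for each peak, from 50 to 3233.06. The score was used only for filtering in an alternative. Per the submitters' processing notes, CASAVA 1.7, Bowtie, MACS, deepTools and build mm9 were used; the roles, settings and use of the 4 input samples, which were not analysed here, are not given in the sources used here. Covered shares were computed from merged peaks with numpy 2.4.6, pandas 2.3.3 and scipy 1.17.1 in Python 3.11.15. Titles gave each library its mark and replicate number. Ratios within a library were tested by exact two-sided sign-flip tests over 16 sign patterns (13 tests) and marks by exact permutation tests over 70 splits (4 tests), with Benjamini-Hochberg adjustment. The left-out H3K4me3 comparison was planned as a log2 ratio and given in percentage points because 1 library was at 0. The pipeline was tested on simulated data. Deviations over domains correlated between H3K27ac and H3K4me1 libraries of the same number (0.44, 0.26, 0.39 and 0.68), so these numbers pair; the sources do not say what they share. Regions to be named were the 10 longest domains, the 5 shortest kept and the 5 longest regions under 20 kb, and the first 5 domains by mean H3K27ac, H3K4me1 or H3K27me3, by length without or with both marked ends, and by the range of H3K79me2 shares. Members and lists were chosen with earlier results of these data known. Alternatives were another peak threshold, library minimum, gap, length, flank, window, scale, block, and each library left out.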

Additional observations from a re-analysis of the deposited data

Results flagged for a closer look

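Of 60 groups of 4 libraries examined, none of them of H3K79me2, 17 held a library farther from the rest than Dixon's 95% limit. For independent groups chance gives about 1 in 20, or 3. Many of these groups measure the same libraries in related ways, so the 17 cannot be judged against that number. The 17 gathered in a few libraries.

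H3K4me3 replicate 1 was low in the flanks, at 0.405% of the bases against 3.74% to 4.31%, and touched 45.6% of the domains against 77.5% to 78.3%. At the start side it covered 17.8% of the first kb inside against 84.1% to 88.3%, and 8.01% of the first kb outside against 71.2% to 79.2%. H3K27ac replicate 1 covered 4.60% of the bases more than 5 kb from both ends, against 23.6% to 24.95%.

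H3K27ac replicate 2 was high in its log2 enrichment in the domains, at 4.58 against 2.497 to 2.80. Its log2 ratio of long domains to shorter regions was 0.81 against 0.00672 to 0.0924, and its log2 ratio of inside to flanks was 3.18 against 0.51 to 0.69.

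H3K27me3 replicate 3 covered 0.120% of the domain bases against 0.00559% to 0.0205%, and 0.531% of the shorter regions against 0.0141% to 0.0781%.

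H3K9me3 replicate 4 covered 1.71% of the domain bases against 0.0420% to 0.103%, 1.12% of the shorter regions against 0.126% to 0.280%, and 1.84% of the bases more than 5 kb from both ends against 0.0321% to 0.0935%. It touched 43.5% of the domains against 2.15% to 3.89%, and the inner part of 36.2% against 1.34% to 2.48%. Its log2 enrichment was 2.81 against −1.21 to −1.02, and its log2 ratio of inside to flanks was 1.64 against −1.28 to −1.02.

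No explanation for these libraries was tested.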

How the results depend on the processing

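The within-library tests could not pass 0.05 under any alternative, so only their direction and size can be compared. The number of domains went from 1491 to 719 when all 4 H3K79me2 libraries had to cover a base and to 342 at 40 kb or more, and leaving out each H3K79me2 library with 2 of the other 3 asked for gave 1668 to 1922. Their bases went from 49.9 Mb to 21.1 Mb with all 4 libraries, 77.5 Mb with at least 2 and 18.5 Mb at 40 kb or more. The share with 1 marked end was 70.6% with H3K4me3 peaks no lower than their library's median score, 77.2% with all 4 libraries, 72.8% with at least 2 and 81.0% at 40 kb or more. Reversals were H3K9me3 in long against shorter domains (0.0590 percentage points) and inside against flanks (0.218 percentage points) when differences replaced log2 ratios, H3K4me3 inside against flanks of 10 kb (log2 −0.0330), and H3K27ac against H3K4me1 without scaling by the chromosomes (log2 0.0325); the cause was not tested.

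The enrichment over H3K27me3 passed 0.05 only at full size: leaving out each replicate gave log2 8.43 to 9.49 for H3K27ac, 9.43 to 9.91 for H3K4me1 and 4.76 to 6.34 for H3K9me3, each with an exact permutation p of 0.1, the smallest for 3 against 3. With the replicate number as a block the values were 9.03, 9.62 and 5.78 (exact sign-flip p = 0.125, adjusted p = 0.167), since 4 pairs allow no smaller p. Whether the numbers pair these marks could not be determined from deviations over domains, because each H3K27me3 library was at 0 in 1477 to 1486 of the 1491 domains. The block changed no other call. Without scaling by the chromosomes the values were 9.71 and 9.68 (adjusted exact permutation p = 0.0571) and 2.88 (adjusted p = 0.152). The within-library tests of H3K27me3 and the 3 enrichment comparisons with H3K27me3 gave no value at 40 kb or more, because a library was at 0. Depth was unknown throughout, so whether a base without a peak lacked the mark or fell under the detection limit cannot be told apart.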
